A study of Mus musculus with 8 samples.

Results

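The genes described here are 52 genes of the extracellular matrix and of the cells that lay it down. They were taken by gene symbol from a list of names, and that list was chosen with earlier results of these data known. The 52 genes were read in 8 tumors, among the 27179 genes of the expression table. They comprise 7 small leucine-rich proteoglycans, 5 genes for large and basement membrane proteoglycans and hyaluronan synthase, 13 adhesive and matricellular glycoproteins, 11 genes for elastic fibre proteins and lysyl oxidases, 7 laminins and nidogens, and 9 genes used to mark fibroblasts, myofibroblasts and pericytes. The tumors were grown in male CD2F1 mice, 13 to 18 weeks old, from C26 cells, a mouse colon carcinoma line, in its cachectic form (cxC26). In 4 tumors the implanted cells were cxC26 scr, a control line with a scrambled guide RNA that the labels call wild-type, and in the other 4 they were cxC26 IL6KOs1, 1 subclone in which Il6, the gene for the cytokine interleukin-6, had been disrupted by CRISPR/Cas9. No drug treatment is named for either group, and tumors were taken when the mice had lost more than 15% of body weight. The day of collection and the number of cells implanted are not given for these tumors, and in other experiments of the study more cxC26 IL6KOs1 than cxC26 scr cells were implanted, so time in the host, the size of the inoculum, the traits of 1 subclone and the loss of Il6 cannot be told apart.

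Matrix glycoproteins and proteoglycans fill the space between cells. Fibronectin, tenascins and thrombospondins tie cells to the matrix, proteoglycans carry sulfated sugar chains that hold water and growth factors, fibrillins and elastin form elastic fibres, and laminins with nidogens and perlecan build basement membranes. In a tumor most of these genes are used by fibroblasts and pericytes of the host, but carcinoma cells can use many of them too, and interleukin-6 is a cytokine that both kinds of cell can release and sense. The comparison asks how the matrix program of the whole tumor differed when the implanted cells lacked Il6.

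Gene expression was measured as log2 CPM, the log2 of reads scaled to the library size after an offset of 0.5 reads, and differences are given as cxC26 IL6KOs1 minus cxC26 scr on that log2 scale, with a standard error (SE) and an adjusted p-value from limma over all tested genes. The tumors held 14158989 to 17048062 reads on genes each. Il6 itself was covered by 356, 326, 376 and 438 reads in the cxC26 scr group and by 64, 56, 86 and 59 in the cxC26 IL6KOs1 group, and these reads do not tell transcripts with the disruption from those without it. Of 9 epithelial markers checked against the label of a colon carcinoma, Krt20 had 17390 to 22185 reads in every tumor. The other epithelial markers were low or near 0, with 0 to 14 reads for Epcam and at most 3 reads for Krt19 and Cldn4, and Krt18 rose from 21 to 30 reads in the cxC26 scr tumors to 140 to 282 reads in the cxC26 IL6KOs1 tumors (limma adjusted p = 3.0e-06). Of these 9 markers 3 were tested and 2 were higher, Krt18 and Cdh1, while Krt20 was not called (difference 0.21, limma adjusted p = 0.102). The list summed to 1079 to 1288 CPM in the cxC26 scr and 1325 to 1450 CPM in the cxC26 IL6KOs1 tumors. Most of that sum was Krt20, at a mean of 10.20 log2 CPM in the cxC26 scr and 10.42 log2 CPM in the cxC26 IL6KOs1 tumors. In bulk tumor RNA, fewer cells of a type and less RNA per cell cannot be told apart.

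The matrix genes moved in both directions. Of the 52 members, 49 passed the filter on low values, which asked for 1 CPM or more in 4 or more tumors of the 8. By limma, at an adjusted p-value under 0.05, 13 of these (26.5%) were higher and 15 (30.6%) lower in cxC26 IL6KOs1 than in cxC26 scr tumors. Among all 13262 tested genes 19.1% were higher and 20.7% were lower, so much of the transcriptome differed between the groups. A difference of at least 2-fold was called higher for 10 members (20.4%) and lower for 6 (12.2%), beside 6.25% and 3.93% of all tested genes. The 4 values of each group did not overlap for 9 members with higher values (18.4%) and 14 with lower values (28.6%) in the cxC26 IL6KOs1 tumors, beside 17.8% and 19.3% of all tested genes. The median difference of the tested members was 0.05 and that of all tested genes was -0.003, whereas the median size of the difference, without its sign, was 0.73 for the members and 0.30 for all tested genes. These counts describe a chosen list and were not tested as a set.

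**Figure D1:**
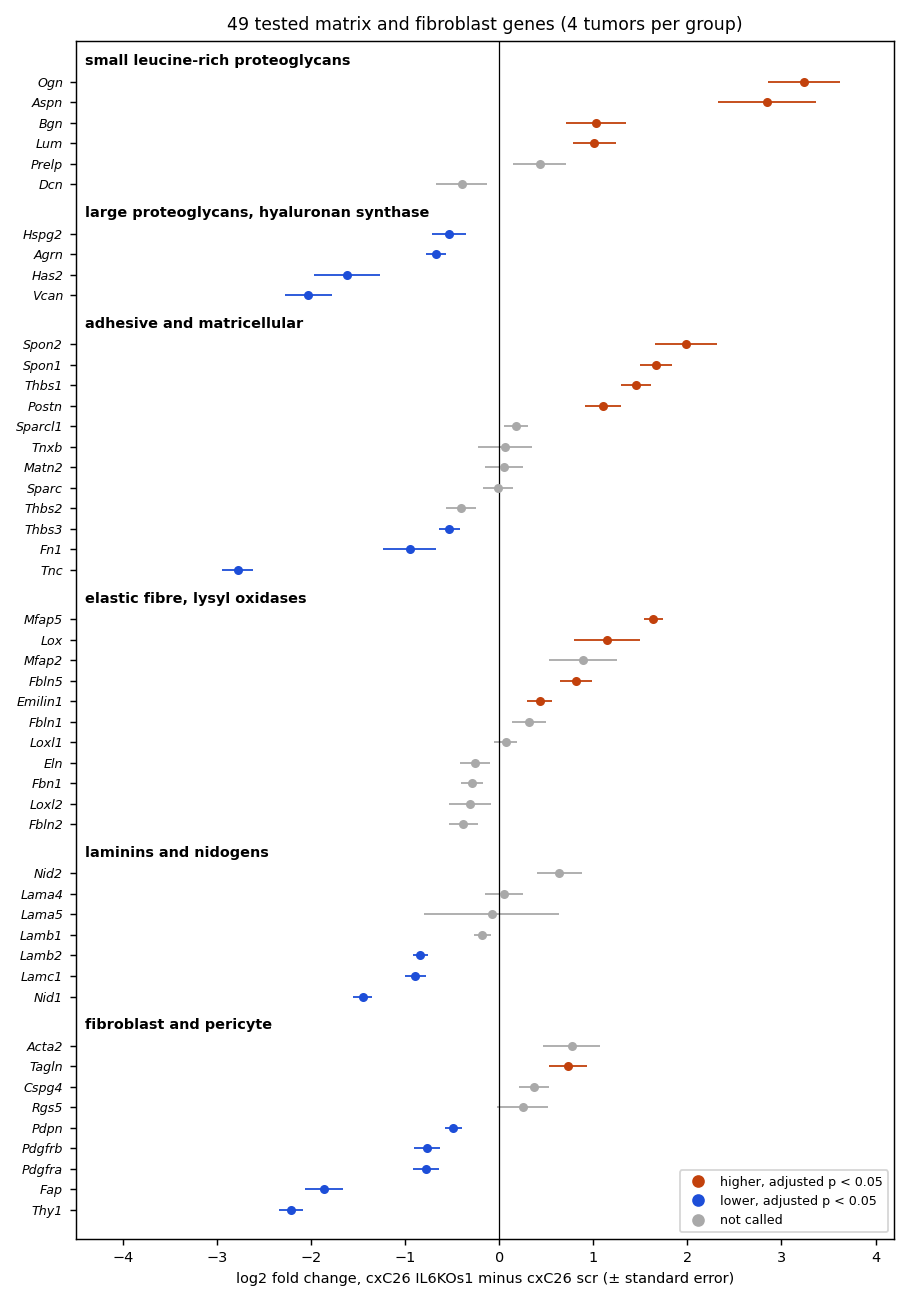
Log2 fold change (cxC26 IL6KOs1 minus cxC26 scr) of the 49 tested members, by role, as points with ± SE from limma over 4 tumors per group. The 13 members called higher and the 15 called lower are colored, and the values run from -2.78 for Tnc to 3.24 for Ogn.

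By role, calls are given beside the 19.1% of all tested genes that were higher and the 20.7% that were lower. Of the 6 tested small leucine-rich proteoglycans 4 rose and 0 fell, whereas all 4 tested genes for large and basement membrane proteoglycans and hyaluronan synthase fell. Among 12 tested adhesive and matricellular glycoproteins 4 rose and 3 fell. Of 11 genes for elastic fibre proteins and lysyl oxidases 4 rose and 0 fell, of 7 laminins and nidogens 0 rose and 3 fell, and of 9 fibroblast and pericyte genes 1 rose and 5 fell. The group medians were 1.02, -1.14, 0.06, 0.32, -0.18 and -0.49 in that order. Differences between the role groups were not tested.

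Reads of the 52 members made up 1.87%, 1.53%, 1.79% and 1.75% of all counted reads in the cxC26 scr group and 1.01%, 1.05%, 1.09% and 1.14% in the cxC26 IL6KOs1 group. Every cxC26 IL6KOs1 tumor was below every cxC26 scr tumor. Thbs2, Tnc and Fn1 together held 57.7% to 61.1% of the members' reads in the cxC26 scr group and 44.9% to 51.3% in the cxC26 IL6KOs1 group.

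For an order of levels, genes were compared per length, as RPKM (CPM divided by the length of the exons in kilobases). Thbs2, which encodes the matricellular protein thrombospondin-2, had the highest length-scaled level of the members in both groups, with a mean of 671 RPKM in the cxC26 scr and 509 RPKM in the cxC26 IL6KOs1 tumors. Below it the order changed. Tnc went from rank 2 (478 RPKM) to rank 7 (69.1 RPKM), Thy1 from rank 4 (179 RPKM) to rank 10 (38.8 RPKM), and Vcan from rank 14 (29.1 RPKM) to rank 31 (7.47 RPKM). In the other direction Thbs1 went from rank 12 (38.6 RPKM) to rank 4 (105 RPKM), and Aspn from rank 39 (2.14 RPKM) to rank 15 (19.5 RPKM). Sparc, which encodes a collagen-binding matricellular protein, stayed at rank 3 and rank 2 with 186 RPKM and 181 RPKM. Neighbours in this order were often not separated: in the cxC26 scr tumors the ranges of Sparc (151 to 254 RPKM), Thy1 (163 to 216 RPKM) and Fn1 (147 to 223 RPKM) overlapped.

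**Figure D2:**
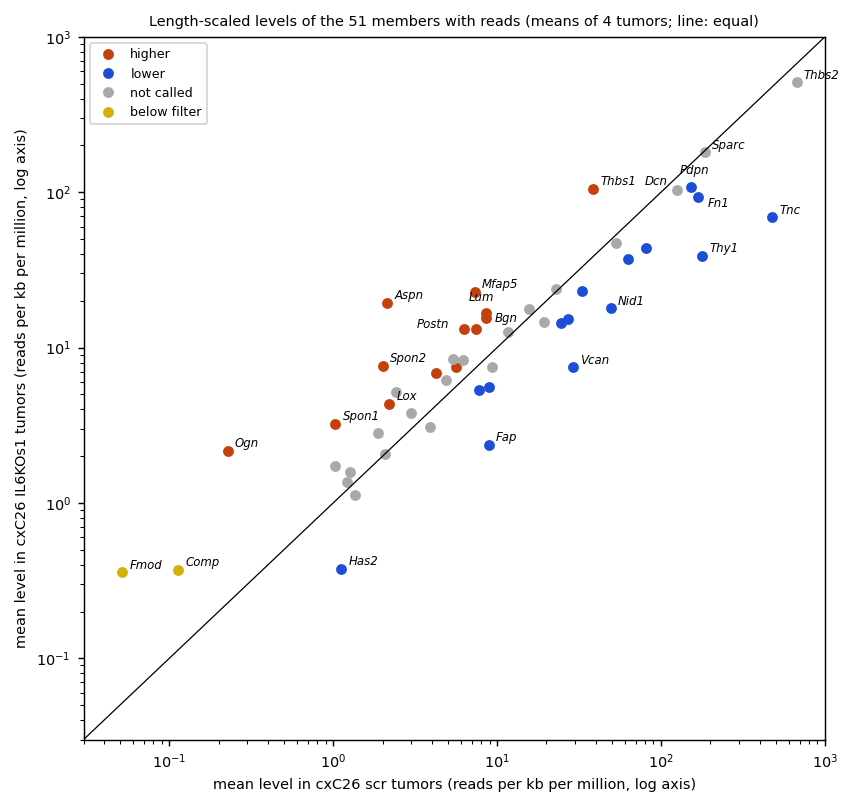
Mean length-scaled level of the 51 members with reads in the cxC26 scr tumors (horizontal log axis, RPKM) and in the cxC26 IL6KOs1 tumors (vertical log axis), with the line of equal levels; colors show the call by limma. Tnc, Thy1 and Vcan lie far below the line, and Ogn, Aspn, Spon1, Spon2 and Mfap5 far above it.

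The promoters of 30 of the 52 members were held in the RefSeq table of GRCm38.p6 used here. For the members with the largest differences among these, the 250 bases before the transcription start are printed, 5′ to 3′ on the strand of the gene, because members of one tissue program that moved apart can be compared in sequence. Capitals mark matches on either strand to 3 motifs. The first is the core promoter motif spelled TATAAA and called the TATA box here, the second is the GC box with the letters GGGCGG, and the third is the motif of the TEAD factors, searched as GGAATG. All windows were also searched for the AP-1 motif with the letters TGANTCA, for the STAT motif TTCNNNGAA, and for the CArG box of serum response factor. A match is only a match of letters. Where 2 starts are listed, the one farthest downstream was used.
Ogn, higher, chr13:49607765-49608014, plus strand: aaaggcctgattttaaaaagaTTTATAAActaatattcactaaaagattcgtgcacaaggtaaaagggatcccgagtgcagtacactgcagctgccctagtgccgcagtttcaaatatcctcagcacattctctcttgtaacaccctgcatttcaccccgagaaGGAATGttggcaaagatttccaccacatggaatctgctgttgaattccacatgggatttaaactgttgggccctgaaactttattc
Aspn, higher, chr13:49544193-49544442, plus strand: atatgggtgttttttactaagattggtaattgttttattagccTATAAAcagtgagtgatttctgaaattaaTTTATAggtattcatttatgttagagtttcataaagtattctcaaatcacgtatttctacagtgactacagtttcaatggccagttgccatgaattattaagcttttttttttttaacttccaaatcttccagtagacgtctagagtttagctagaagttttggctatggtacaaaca
Postn, higher, chr3:54360857-54361106, plus strand: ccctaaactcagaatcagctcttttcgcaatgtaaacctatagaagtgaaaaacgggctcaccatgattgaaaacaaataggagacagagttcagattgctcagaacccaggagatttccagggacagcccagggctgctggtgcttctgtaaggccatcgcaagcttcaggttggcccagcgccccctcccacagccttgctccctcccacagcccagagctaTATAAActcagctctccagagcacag
Tnc, lower, chr4:64046937-64047186, minus strand: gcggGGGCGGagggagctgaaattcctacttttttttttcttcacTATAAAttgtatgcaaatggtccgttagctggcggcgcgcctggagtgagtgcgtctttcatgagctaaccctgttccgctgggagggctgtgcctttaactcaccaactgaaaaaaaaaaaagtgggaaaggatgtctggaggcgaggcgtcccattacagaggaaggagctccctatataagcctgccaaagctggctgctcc
Vcan, lower, chr13:89742513-89742762, minus strand: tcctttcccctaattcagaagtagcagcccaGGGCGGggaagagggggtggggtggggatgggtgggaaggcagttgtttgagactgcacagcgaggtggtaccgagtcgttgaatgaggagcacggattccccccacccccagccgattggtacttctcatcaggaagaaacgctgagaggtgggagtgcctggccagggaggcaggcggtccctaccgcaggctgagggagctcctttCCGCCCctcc
Nid1, lower, chr13:13437352-13437601, plus strand: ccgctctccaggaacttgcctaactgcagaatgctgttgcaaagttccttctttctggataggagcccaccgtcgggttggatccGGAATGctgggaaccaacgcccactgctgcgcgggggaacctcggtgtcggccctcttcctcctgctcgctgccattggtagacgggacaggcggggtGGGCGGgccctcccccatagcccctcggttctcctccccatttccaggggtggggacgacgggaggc

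Of the 6 higher members with an entry, 3 (Ogn, Aspn and Postn) held a TATA box and 2 (Bgn and Fbln5) a GC box. Of the 9 lower members with an entry, 1 (Tnc) held a TATA box and 6 (Tnc, Vcan, Nid1, Hspg2, Agrn and Thbs3) a GC box. Among the 13 members with an entry that were not called, 1 held a TATA box and 7 a GC box. Of the 27025 genes in the table, 14.3% held a TATA box and 35.4% a GC box in at least 1 window. The TATAAA letters of Postn began 26 bases before the start, whereas those of Ogn, Aspn and Tnc began 178 to 229 bases before it. Other spellings were not searched, so the stretch tatataag near the end of the Tnc sequence is not marked. Positions therefore compare these letters only. The TEAD motif, held by 14.4% of genes, was found in Ogn and Nid1 among the called members. AP-1 letters, held by 7.82% of genes, and the CArG box, held by 1.62%, were found in 0 called members, and the STAT letters, held by 8.13%, in 1, Lamb2. With so few members these counts are a description and were not tested.

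Small leucine-rich proteoglycans bind collagen fibrils and set their spacing. Ogn, which encodes osteoglycin (GRCm38 chr13:49608046-49624501, plus strand), was at 0.15, -1.32, -1.13 and -1.04 log2 CPM in the cxC26 scr tumors and at 1.94, 2.13, 3.12 and 2.42 log2 CPM in the cxC26 IL6KOs1 tumors. The groups did not overlap, and in reads these were 6 to 18 against 60 to 137 per tumor. The difference of 3.24 (SE 0.38, limma adjusted p = 7.7e-05), or 9.43-fold, was the largest increase among the members. Ogn passed the filter through the cxC26 IL6KOs1 tumors, so its call rests on low counts in the other group. Aspn, for asporin, an inhibitor of transforming growth factor beta (chr13:49544443-49567565, plus strand), is a close neighbour of Ogn. It was at 2.22, 3.01, 1.77 and 2.04 log2 CPM in the cxC26 scr tumors and at 3.58, 4.48, 6.54 and 5.83 log2 CPM in the cxC26 IL6KOs1 tumors. All 4 tumors of cxC26 IL6KOs1 were higher, and they spread over a wider range, with replicates 3 and 4 above replicates 1 and 2. Aspn rose by 2.85 (SE 0.52, limma adjusted p = 0.0014).

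Lum, for lumican (chr10:97565128-97572703, plus strand), was at 4.98, 4.55, 3.85 and 3.92 log2 CPM in the cxC26 scr and at 5.27, 4.95, 5.49 and 5.60 log2 CPM in the cxC26 IL6KOs1 tumors. The groups overlapped by 1 tumor, since cxC26 scr replicate 1 lay just above cxC26 IL6KOs1 replicate 2. The difference was 1.01 (SE 0.23, limma adjusted p = 0.0057). Bgn, for biglycan (chrX:73483602-73495933, plus strand), was at 6.55, 5.83, 5.02 and 4.70 log2 CPM in the cxC26 scr tumors and at 6.71, 6.75, 6.27 and 6.46 log2 CPM in the cxC26 IL6KOs1 tumors. The cxC26 scr tumors spread widely, and replicate 1 was within the range of the other group. The difference of 1.03 (SE 0.32, limma adjusted p = 0.023) was lost under several other choices. The limma adjusted p was 0.0926 without the filter and 0.0565 without the variance trend. It was 0.0728 without cxC26 scr replicate 3, 0.0647 without cxC26 scr replicate 4 (difference 0.75) and 0.055 without cxC26 IL6KOs1 replicate 2.

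Dcn, for decorin, had the highest mean log2 CPM of this group and was not called. It was at 9.31, 9.53, 9.51 and 9.68 log2 CPM in the cxC26 scr tumors and at 8.44, 8.56, 9.74 and 9.70 log2 CPM in the cxC26 IL6KOs1 tumors. Replicates 1 and 2 of cxC26 IL6KOs1 lay below all cxC26 scr tumors and replicates 3 and 4 above them, and the difference was -0.40 (SE 0.27, limma adjusted p = 0.26). Prelp, for a leucine-rich repeat protein of basement membranes, was not called (difference 0.43, limma adjusted p = 0.24). Fmod, for fibromodulin, was below the filter, with 4, 6, 1 and 0 reads in the cxC26 scr and 13, 37, 8 and 11 reads in the cxC26 IL6KOs1 tumors. Its counts did not overlap and were too low for the test.

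All 4 tested large proteoglycan and hyaluronan genes fell. Vcan encodes versican, a hyaluronan-binding proteoglycan of loose matrix (chr13:89655312-89742509, minus strand). It was at 8.40, 8.47, 9.02 and 8.89 log2 CPM in the cxC26 scr tumors and at 5.97, 6.37, 6.95 and 7.35 log2 CPM in the cxC26 IL6KOs1 tumors. The groups were more than 1 log2 unit apart, although replicates 1 and 2 of cxC26 IL6KOs1 were lower than replicates 3 and 4. Vcan fell by 2.03 (SE 0.25, limma adjusted p = 0.00012), a level 4.09-fold lower. Has2, the enzyme that makes the hyaluronan to which versican binds (chr15:56665627-56694539, minus strand), was at 2.69, 2.50, 1.83 and 1.82 log2 CPM in the cxC26 scr and at 0.71, -0.40, 0.85 and 1.21 log2 CPM in the cxC26 IL6KOs1 tumors. Every cxC26 IL6KOs1 tumor was lower, by 1.62 on average (SE 0.35, limma adjusted p = 0.0038). Its exons share 182 bases with the antisense gene Has2os, whose reads cannot be told apart without the strand.

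Hspg2, for perlecan, the large heparan sulfate proteoglycan of basement membranes, was at 9.04, 8.51, 9.10 and 8.77 log2 CPM in the cxC26 scr and at 8.18, 7.93, 8.33 and 8.84 log2 CPM in the cxC26 IL6KOs1 tumors. Replicate 4 of cxC26 IL6KOs1 was within the range of the cxC26 scr tumors. The difference of -0.53 (SE 0.18, limma adjusted p = 0.036) was lost without the filter (adjusted p = 0.123), without the variance trend (0.0736) and when any of 6 tumors was left out. These were cxC26 scr replicates 1 (0.0876), 3 (0.103) and 4 (0.0602) and cxC26 IL6KOs1 replicates 1 (0.0662), 2 (0.0943) and 3 (0.0695). Agrn, for agrin, another heparan sulfate proteoglycan, fell by 0.67 (SE 0.11, limma adjusted p = 0.00078), with 6.16 to 6.46 log2 CPM in the cxC26 scr and 5.44 to 5.90 log2 CPM in the cxC26 IL6KOs1 tumors. Acan, for the cartilage proteoglycan aggrecan, had 0 reads in all 8 tumors.

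The adhesive and matricellular glycoproteins held the largest decrease of all members. Tnc encodes tenascin-C, a matrix protein of wounds and tumor stroma (chr4:63959785-64047015, minus strand). Its log2 CPM was 12.14, 11.41, 11.92 and 11.88 in the cxC26 scr tumors and 9.00, 9.35, 9.04 and 8.84 in the cxC26 IL6KOs1 tumors. The groups were more than 2 log2 units apart at their nearest tumors, and the spread within each group was small. Tnc fell by 2.78 (SE 0.16, limma adjusted p = 8.6e-07), a level 6.87-fold lower. Fn1, for fibronectin, the ligand of several integrins (chr1:71585520-71653200, minus strand), was at 11.35, 10.86, 10.75 and 10.75 log2 CPM in the cxC26 scr and at 9.34, 9.43, 10.42 and 10.71 log2 CPM in the cxC26 IL6KOs1 tumors. The groups touched without overlap, and replicates 3 and 4 of cxC26 IL6KOs1 lay close to the cxC26 scr tumors. The difference was -0.95 (SE 0.28, limma adjusted p = 0.02). The median difference of all tested genes of chromosome 1 was -0.34. With chromosome medians taken off, Fn1 differed by -0.61 (limma adjusted p = 0.124), and the call was also lost without the filter (adjusted p = 0.0891), without cxC26 scr replicate 1 (0.0583) and without cxC26 IL6KOs1 replicate 2 (0.0531).

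The thrombospondins, which bind matrix, calcium and cell receptors, did not move as a family. Thbs1 (chr2:118111876-118127133, plus strand), whose product can activate latent transforming growth factor beta, was at 8.30, 7.82, 7.51 and 7.74 log2 CPM in the cxC26 scr and at 9.17, 9.30, 9.08 and 9.64 log2 CPM in the cxC26 IL6KOs1 tumors. All cxC26 IL6KOs1 tumors were higher, by 1.45 (SE 0.16, limma adjusted p = 6.4e-05). Thbs2 was at 12.09, 12.03, 12.36 and 12.28 log2 CPM in the cxC26 scr and at 11.95, 12.06, 11.62 and 11.50 log2 CPM in the cxC26 IL6KOs1 tumors. The groups overlapped, and the difference of -0.41 (SE 0.16, limma adjusted p = 0.063) was not called, although it passed without cxC26 IL6KOs1 replicate 2 (-0.50, adjusted p = 0.0245), with voom weights (0.0352) and with a stricter filter (0.047). Thbs3 fell by 0.53 (SE 0.11, limma adjusted p = 0.0035), and its exons share 318 bases with Mtx1 on the other strand. Within a tumor, the log2 CPM of Thbs1 minus that of Thbs2, not scaled to length, was -4.86 to -3.79 in the cxC26 scr group and -2.78 to -1.87 in the cxC26 IL6KOs1 group. The pair was chosen after its values were seen and that change of 1.86 log2 units was not tested. Comp, the cartilage thrombospondin, was below the filter, with 4, 9, 4 and 4 reads in the cxC26 scr and 28, 16, 8 and 15 reads in the cxC26 IL6KOs1 tumors.

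Postn, for periostin, a matricellular protein of wounds and tumor stroma (chr3:54361109-54391037, plus strand), was at 6.19, 5.96, 5.54 and 5.18 log2 CPM in the cxC26 scr tumors and at 6.90, 7.08, 6.56 and 6.73 log2 CPM in the cxC26 IL6KOs1 tumors. It moved opposite to Tnc, with every cxC26 IL6KOs1 tumor higher and a difference of 1.10 (SE 0.19, limma adjusted p = 0.001). Both spondins, secreted proteins with thrombospondin-type repeats, rose. Spon1 (chr7:113765998-114043370, plus strand) was at 3.68, 3.70, 3.24 and 2.93 log2 CPM in the cxC26 scr and at 5.18, 5.05, 5.06 and 4.95 log2 CPM in the cxC26 IL6KOs1 tumors. Its cxC26 IL6KOs1 tumors lay close together and above all others (difference 1.67, SE 0.17, limma adjusted p = 2.8e-05). Spon2 (chr5:33198184-33218455, minus strand), which also takes part in innate immune recognition, was at 2.97, 2.93, 2.54 and 1.40 log2 CPM in the cxC26 scr and at 3.81, 4.58, 4.79 and 4.62 log2 CPM in the cxC26 IL6KOs1 tumors. The groups did not overlap, with 1 low cxC26 scr tumor, and the difference was 1.99 (SE 0.33, limma adjusted p = 0.00068). Sparc, Sparcl1, Tnxb and Matn2 were not called, with differences from -0.01 for Sparc to 0.18 for Sparcl1 and limma adjusted p-values of 0.28 to 0.96. Sparcl1 passed only with chromosome medians taken off (0.42, adjusted p = 0.0242), as the median of its chromosome, 5, was -0.24.

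**Figure D3:**
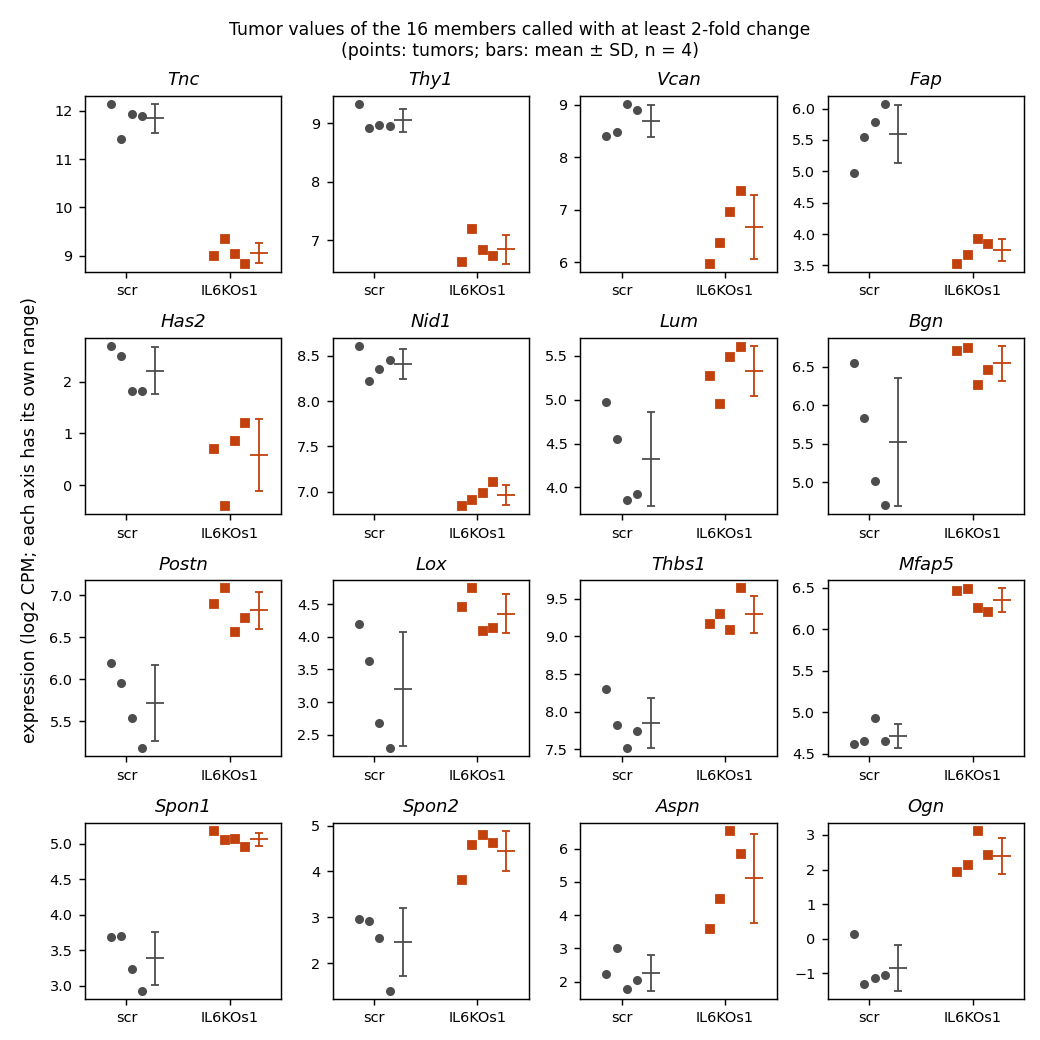
Log2 CPM of the 16 members called with at least a 2-fold difference, 1 panel per gene with its own vertical range; points are tumors and bars are the mean ± SD of 4 tumors. The groups overlap for Bgn, Lum and Lox and are apart for the other panels.

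Elastic fibre genes rose in part and none fell. Mfap5, a glycoprotein of fibrillin microfibrils (chr6:122505845-122529290, plus strand), was at 4.62, 4.65, 4.93 and 4.65 log2 CPM in the cxC26 scr tumors and at 6.46, 6.48, 6.25 and 6.21 log2 CPM in the cxC26 IL6KOs1 tumors. Both groups were tight and far apart, and the difference was 1.64 (SE 0.10, limma adjusted p = 1.3e-06). Lox, the lysyl oxidase that cross-links collagen and elastin, was at 4.19, 3.63, 2.68 and 2.29 log2 CPM in the cxC26 scr and at 4.46, 4.74, 4.09 and 4.13 log2 CPM in the cxC26 IL6KOs1 tumors. Replicate 1 of cxC26 scr was inside the range of the other group. The difference of 1.15 (SE 0.35, limma adjusted p = 0.02) was lost without the filter (adjusted p = 0.0783), without cxC26 scr replicate 3 (0.0633) or 4 (0.0547) and without cxC26 IL6KOs1 replicate 2 (0.0541). Its relatives Loxl1 and Loxl2 were not called, at 0.07 and -0.31 (limma adjusted p = 0.69 and 0.28).

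Fbln5, a fibulin needed for elastic fibre assembly, rose by 0.82 (SE 0.17, limma adjusted p = 0.0026), from 5.30 to 5.88 log2 CPM in the cxC26 scr to 6.03 to 6.80 log2 CPM in the cxC26 IL6KOs1 tumors. Emilin1, a glycoprotein at the surface of elastic fibres, rose by 0.43 (SE 0.13, limma adjusted p = 0.019), a call that was lost without cxC26 scr replicate 2 (adjusted p = 0.056) or 4 (0.0624). Fbln2, a fibulin with the highest mean log2 CPM in this group, was at 7.27, 7.07, 6.83 and 6.53 log2 CPM in the cxC26 scr and at 6.49, 6.78, 6.52 and 6.39 log2 CPM in the cxC26 IL6KOs1 tumors. The ranges overlapped, and the difference of -0.38 was not called (limma adjusted p = 0.057). It passed without cxC26 scr replicate 4 (-0.51, adjusted p = 0.0118), without cxC26 IL6KOs1 replicate 2 (-0.46, 0.0358) and with chromosome medians taken off (-0.45, 0.0358). The main structural genes of the fibre were not called either, at -0.29 for Fbn1 (fibrillin-1, limma adjusted p = 0.075) and -0.26 for Eln (elastin, limma adjusted p = 0.22). Fbn1 passed without cxC26 scr replicate 4 (-0.37, adjusted p = 0.0378), and its exons share 2442 bases with Gm9913 on the other strand. Fbln1 (0.32, limma adjusted p = 0.18) was not called, nor was the low Mfap2 (0.89, limma adjusted p = 0.07), which passed without cxC26 scr replicate 1 (1.16, adjusted p = 0.0223).

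Laminins are trimers of an alpha, a beta and a gamma chain, and nidogens link them to type IV collagen. Nid1 (chr13:13437551-13512269, plus strand) was at 8.61, 8.22, 8.35 and 8.45 log2 CPM in the cxC26 scr tumors and at 6.84, 6.91, 6.98 and 7.10 log2 CPM in the cxC26 IL6KOs1 tumors. The groups were more than 1 log2 unit apart. Nid1 fell by 1.45 (SE 0.10, limma adjusted p = 1.8e-06). Nid2, its relative, was higher in mean but not called (0.64, limma adjusted p = 0.053). It passed without cxC26 scr replicate 1 (0.87, adjusted p = 0.0084) and without cxC26 IL6KOs1 replicate 1 (0.73, 0.0366), and its exons share 437 bases with Rtraf. Within a tumor the log2 CPM of Nid1 minus that of Nid2, not scaled to length, was 4.73 to 5.83 in the cxC26 scr group and 2.88 to 3.26 in the cxC26 IL6KOs1 group, a pair chosen after its values were seen and not tested.

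Lamc1, the gamma chain shared by most laminins (chr1:153218922-153332786, minus strand), ranged from 9.20 to 9.54 log2 CPM in the cxC26 scr and from 8.35 to 8.71 log2 CPM in the cxC26 IL6KOs1 tumors and fell by 0.89 (SE 0.11, limma adjusted p = 0.0001). With the median of chromosome 1 taken off it differed by -0.55 (limma adjusted p = 0.0029). The beta chains differed from each other. Lamb2 fell by 0.84 (SE 0.08, limma adjusted p = 2.8e-05), with 7.24 to 7.51 log2 CPM in the cxC26 scr and 6.47 to 6.59 log2 CPM in the cxC26 IL6KOs1 tumors. Lamb1, which had the highest mean log2 CPM of this group but a lower length-scaled level than Lamc1 in the cxC26 scr tumors (53.2 against 81 RPKM), was at 9.15, 8.94, 9.08 and 8.99 log2 CPM in the cxC26 scr and at 8.80, 8.98, 8.87 and 8.78 log2 CPM in the cxC26 IL6KOs1 tumors. These ranges overlapped by 1 tumor and the difference of -0.18 was not called (limma adjusted p = 0.11), though it passed with chromosome medians taken off (-0.25, adjusted p = 0.0447).

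The alpha chain Lama5 was set by 1 tumor. Its reads numbered 495, 386, 408 and 423 in the cxC26 scr group and 3163, 118, 221 and 280 in the cxC26 IL6KOs1 group. Replicate 1 of cxC26 IL6KOs1 was above every other tumor, and replicates 2 to 4 were below every cxC26 scr tumor. Over all 8 tumors the difference was -0.08 (SE 0.72, limma adjusted p = 0.94), and without cxC26 IL6KOs1 replicate 1 it was -1.05 (adjusted p = 0.0029). That tumor also had the highest summed level of macrophage markers (3054 CPM, against 1755 to 1902 CPM in replicates 2 to 4) and of T and NK cell markers (53.1 CPM, against 20.6 to 28 CPM), and the part of these cells in its Lama5 level was not tested. Lama4, an alpha chain of vessel basement membranes, was not called (0.05, limma adjusted p = 0.85).

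**Figure D4:**
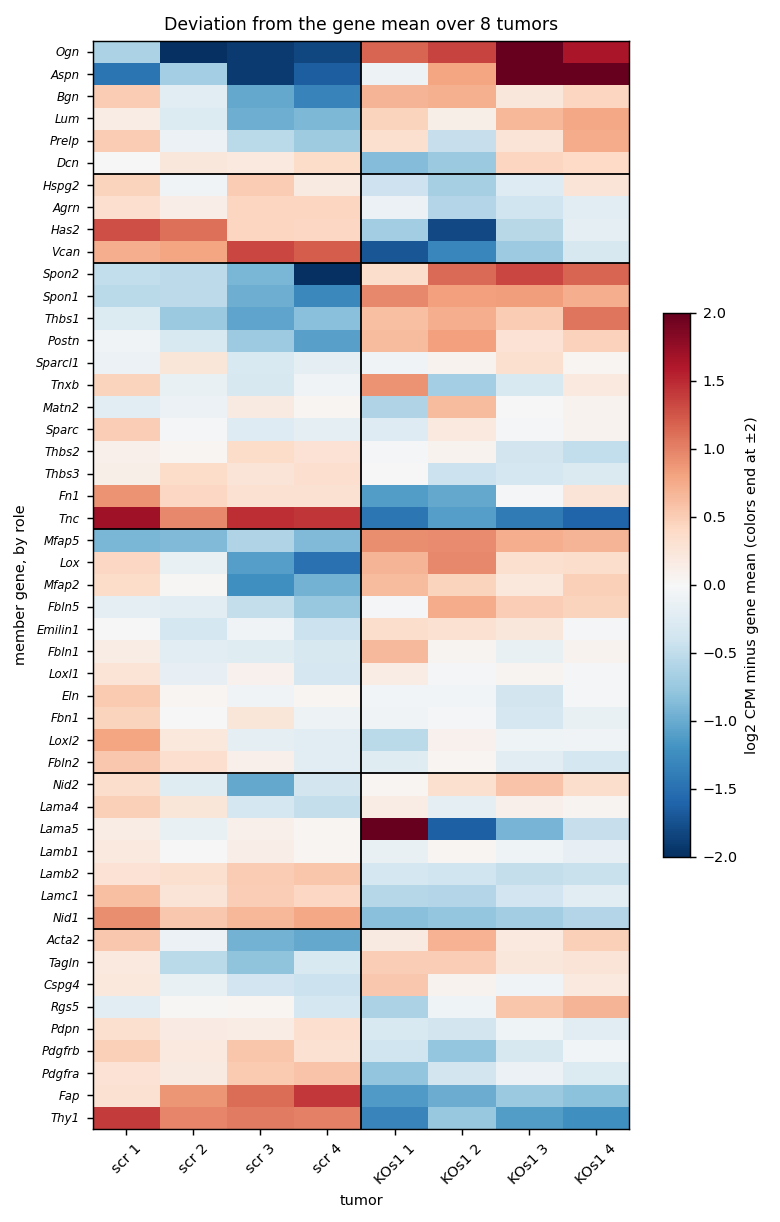
Deviation of each tumor from the gene's mean over 8 tumors (log2 CPM, color scale ending at ±2) for the 49 tested members in rows by role and the tumors in columns (KOs1 stands for cxC26 IL6KOs1). Lama5 is high in replicate 1 of cxC26 IL6KOs1 alone. Several members, among them Bgn, Lum, Postn, Spon1, Lox, Mfap2 and Acta2, are lower in replicates 3 and 4 of cxC26 scr than in replicates 1 and 2.

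Of the genes used to mark fibroblasts, Thy1, Fap, Pdgfra and Pdpn fell. Thy1, a surface glycoprotein of fibroblasts that mouse T cells also carry (chr9:44043384-44048579, plus strand), was at 9.34, 8.93, 8.98 and 8.96 log2 CPM in the cxC26 scr and at 6.63, 7.19, 6.83 and 6.72 log2 CPM in the cxC26 IL6KOs1 tumors. Every cxC26 IL6KOs1 tumor was lower, and Thy1 fell by 2.21 (SE 0.13, limma adjusted p = 9.7e-07), a level 4.62-fold lower. The part of T cells or of fibroblasts in its level was not tested. Fap, the fibroblast activation protease of tumor stroma (chr2:62500943-62574075, minus strand), was at 4.98, 5.55, 5.78 and 6.08 log2 CPM in the cxC26 scr and at 3.53, 3.67, 3.92 and 3.85 log2 CPM in the cxC26 IL6KOs1 tumors. The groups were more than 1 log2 unit apart at their nearest tumors and the difference was -1.86 (SE 0.20, limma adjusted p = 4.5e-05). Pdgfra, the platelet-derived growth factor receptor of fibroblasts, had the highest mean log2 CPM in this group, although Thy1 and Pdpn were higher per length. It was at 9.19, 9.09, 9.42 and 9.47 log2 CPM in the cxC26 scr and at 8.11, 8.53, 8.79 and 8.63 log2 CPM in the cxC26 IL6KOs1 tumors. Its groups did not overlap (difference -0.78, SE 0.14, limma adjusted p = 0.0013), and its exons share up to 456 bases with other genes.

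Pdgfrb, the receptor of pericytes and fibroblasts, fell by 0.77 (SE 0.14, limma adjusted p = 0.0013), and Pdpn, for podoplanin, fell by 0.49 (SE 0.09, limma adjusted p = 0.0012). The contractile genes had the opposite sign. Tagln, for the actin-binding protein transgelin, rose by 0.73 (SE 0.20, limma adjusted p = 0.013), although its exons share 1241 bases with other genes. Acta2, the smooth muscle actin of myofibroblasts, was at 4.35, 3.70, 2.86 and 2.78 log2 CPM in the cxC26 scr and at 3.99, 4.51, 4.00 and 4.29 log2 CPM in the cxC26 IL6KOs1 tumors. Replicate 1 of cxC26 scr lay within the other group, and the difference of 0.77 was not called (limma adjusted p = 0.06), though it passed without that tumor (1.08, adjusted p = 0.0051). The pericyte genes Cspg4 (0.37, limma adjusted p = 0.082) and Rgs5 (0.25, limma adjusted p = 0.48) were not called. Cspg4 passed without cxC26 scr replicate 1 (0.50, adjusted p = 0.0167) and after quantile normalization (0.42, 0.0434).

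Marker lists of the cells that a tumor can hold were summed in each tumor beside these genes. Calls in each list are given beside the 19.1% of all tested genes that were higher and the 20.7% that were lower. The fibroblast list, with 14 of 15 genes tested, summed to 8704 to 11568 CPM in the cxC26 scr and 6003 to 8643 CPM in the cxC26 IL6KOs1 tumors. It had 4 higher genes (28.6%) and 5 lower ones (35.7%), with a median difference of -0.15 over its tested genes. Within it Col6a3, a collagen VI chain, fell by 2.38 (limma adjusted p = 3.8e-06), Col3a1, with the highest mean log2 CPM of the list, fell by 0.53 (limma adjusted p = 0.028), and Mfap4 rose by 2.36 (limma adjusted p = 0.0047). Mfap4 reached 1 CPM in 2 of the cxC26 scr tumors and so passed the filter through the cxC26 IL6KOs1 group. Of 10 pericyte and smooth muscle genes 8 were tested and 0 were called, with summed levels of 56.6 to 92.1 and 64.4 to 103 CPM, and of 10 endothelial genes 1 was lower (Vwf, -0.78, limma adjusted p = 0.0051), with 144 to 226 and 157 to 202 CPM. All 10 macrophage genes were higher, with 875 to 1124 CPM in the cxC26 scr and 1755 to 3054 CPM in the cxC26 IL6KOs1 tumors. The 8 tested of 10 T and NK cell genes were also higher, but each of the 8 passed the filter only through the cxC26 IL6KOs1 group, and 5 reached 1 CPM in 0 of the cxC26 scr tumors, so their direction was largely set by the filter. The T and NK cell list summed to 3.37 to 8.03 CPM in the cxC26 scr and 20.6 to 53.1 CPM in the cxC26 IL6KOs1 tumors. The chondrocyte list had 13.4 to 19 and 9.6 to 23.6 CPM, with Col9a1, Matn1 and Cnmd at 3 reads or fewer in every tumor, and 0 of its 2 tested genes were called. Of the other lists, adipocyte (109 to 237 CPM over all tumors) and skin keratinocyte genes (9.29 to 25.8 CPM) had 0 calls, and of 8 skeletal muscle genes (11.9 to 363 CPM) 1, Myh1, was higher, again a gene that passed the filter through the cxC26 IL6KOs1 group. The part of any of these cells in the members' differences was not tested.

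**Figure D5:**
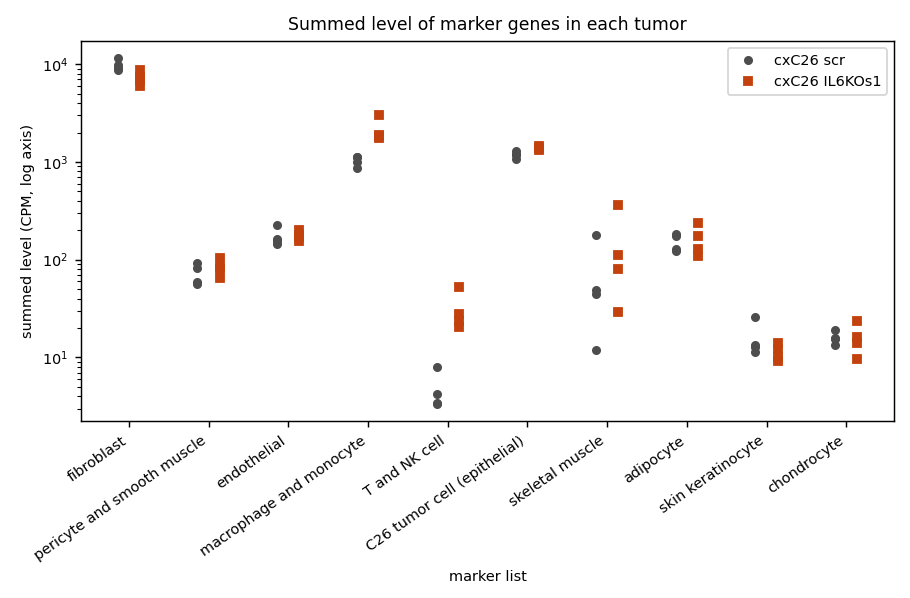
Summed level (CPM, log axis) of the marker genes of 10 lists in each tumor, with cxC26 scr as circles and cxC26 IL6KOs1 as squares. Macrophage, T and NK cell and epithelial sums are higher in every cxC26 IL6KOs1 tumor than in any cxC26 scr tumor. Fibroblast sums are lower in every cxC26 IL6KOs1 tumor, although the nearest tumors of the groups are at 8643 and 8704 CPM. Pericyte and endothelial sums overlap.

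Other genes of the same pathways were read from lists of names. Calls are again given beside the 19.1% of all tested genes that were higher and the 20.7% that were lower. Of 49 other matrix glycoproteins and proteoglycans 35 were tested, of which 11 were higher (31.4%) and 5 lower (14.3%), with a median difference of 0.20. Among the higher genes, Mfap4, Thbs4 and Hapln4 reached 1 CPM in only 2, 3 and 2 of the cxC26 scr tumors. Each of these genes thus passed the filter with the help of the cxC26 IL6KOs1 group. Among the lower genes, Fbn2 and Smoc1 reached 1 CPM in 3 and 4 of the cxC26 scr tumors but each in only 1 of the cxC26 IL6KOs1 tumors. Both passed the filter with the help of the cxC26 scr group. Omd, for osteomodulin, a further small leucine-rich proteoglycan, had the largest called increase, 2.86 (SE 0.43, limma adjusted p = 0.00038), and Ccn4, a matricellular target of Wnt signalling, the largest called decrease, -1.89 (SE 0.17, limma adjusted p = 1.6e-05). Spp1, for osteopontin, had the highest mean log2 CPM and was not called (0.04, limma adjusted p = 0.86). Of 8 tested cell surface proteoglycans 1 was higher (12.5%), Sdc3 (1.26, limma adjusted p = 0.0015), and 4 were lower (50%). Among the lower ones were Sdc4 (-0.94, limma adjusted p = 0.00041) and the glypican Gpc1 (-0.81, limma adjusted p = 0.0015). Of 28 tested enzymes of glycosaminoglycan synthesis, which build the sugar chains of the proteoglycans, 2 were higher (7.14%) and 10 lower (35.7%). The sulfotransferase Chst11, of chondroitin sulfate, had the largest called decrease (-1.40, limma adjusted p = 0.00029) and the sulfotransferase Ust the largest called increase (1.74, limma adjusted p = 0.0059). Ust reached 1 CPM in 1 of the cxC26 scr tumors and passed the filter through the cxC26 IL6KOs1 group, and Ugdh, which makes the sugar precursor, was not called (-0.18, limma adjusted p = 0.081).

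Among 18 tested matrix receptors 4 were higher (22.2%) and 5 lower (27.8%), near the 19.1% and 20.7% of all tested genes. Itga2, the alpha chain of a collagen-binding integrin, fell by 2.62 (SE 0.27, limma adjusted p = 3.0e-05), Itgb3 rose by 0.78 (limma adjusted p = 0.0065), and Itgb1, with the highest mean log2 CPM of the list, was at a mean of 10.43 log2 CPM in both groups. Among 15 tested contractile and myofibroblast genes 2 were higher (13.3%) and 3 lower (20%). Cnn2, a calponin, rose by 1.12 (limma adjusted p = 0.00026), and Tpm1, a tropomyosin with the highest mean log2 CPM of the list, fell by 0.37 (limma adjusted p = 0.023).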

How the data were processed

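RNA of 8 subcutaneous tumors was sequenced as paired reads of 150 bp after poly-A selection. The authors trimmed the reads with Trimmomatic, mapped them with Hisat2 (build mm10, GRCm38), ran featureCounts to count reads per gene, and deposited the log2 CPM that limma-voom gives, without a filter on low expression. The submitters' processing notes name bcl2fastq 2.17, and the other versions, the annotation and the strand setting are not given in the sources used here. Reads were recovered by inverting the voom formula, with offsets of 0.5 reads and 1 read of library size, and 100.0% of the values up to 100 reads came out whole within 0.01 of a read. These totals, 14158989 to 17048062 reads per tumor, set the precision of low genes.

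Groups and replicate numbers came from the sample titles. Nothing in the labels ties equal numbers to 1 mouse or day, so the main test used no pairing. Its p-values measure the spread between tumors of 1 cxC26 IL6KOs1 subclone and of 1 control line, not the spread between subclones. Differences were tested in R 4.3.3 with limma 3.58.1 (lmFit, eBayes with a mean-variance trend, no covariates) over the 13262 genes that reached 1 CPM in 4 or more of 8 tumors, with Benjamini-Hochberg adjustment and a threshold of 0.05. In simulated tumors of this comparison, 162 of 200 genes changed by 1 on the log2 scale were recovered among 13309 tested, with 9 false calls, and 0 of 13306 were called with no change. In these simulations each gene varied independently and at most 200 genes were changed. A larger share of genes was called here, so these rates may not hold for the real tumors. RPKM used the recovered reads and the exon union of each gene in GENCODE M21, which is also the source of gene positions and overlaps, and 17 members share exon bases with another gene. Promoters came from RefSeq (GRCm38.p6).

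The members, the role groups and the other lists were chosen with earlier results of these data known. Given tumor by tumor were the called members with at least a 2-fold difference and the member of highest mean log2 CPM in each role group, plus Fn1, Lama5, Acta2, Fmod and Comp, which were added after their values were seen. Of the other lists, the largest called increase and decrease and the highest mean were named. A gene chosen by this rule is not reported here. The alternatives were no filter, quantile normalization, a stricter filter (mean log2 CPM of 3 or more), median centring, the replicate number as a block, no variance trend, voom weights on the recovered reads, log2(CPM + 1), chromosome medians taken off, a 2-fold threshold, and each tumor left out in turn.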

Additional observations from a re-analysis of the deposited data

Results flagged for a closer look

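In 3 of the 98 groups of 4 values (49 tested members in each of 2 groups of tumors), 1 tumor stood far from the other 3, measured by its gap over the range of the group. Chance alone gives about 4.9 of 98. Eln in cxC26 IL6KOs1 replicate 3 was at 2.95 log2 CPM, with the other tumors of that group at 3.27 to 3.29. Mfap5 in cxC26 scr replicate 3 was at 4.93 log2 CPM, with the others at 4.62 to 4.65, and stayed below every cxC26 IL6KOs1 tumor. Thy1 in cxC26 scr replicate 1 was at 9.34 log2 CPM, with the others at 8.93 to 8.98, and lay on the side away from the cxC26 IL6KOs1 tumors.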

How the results depend on the processing

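Of the 28 called members, 23 were called in the same direction under every alternative that tested them at the same threshold, and no called member changed sign. The exceptions were Bgn, Hspg2, Fn1, Lox and Emilin1. The further requirement of at least a 2-fold difference moved the number of lower members most, from 15 to 6, and that of higher members from 13 to 10. With single tumors left out, 10 to 17 members were higher and 13 to 16 lower, and the median difference was -0.07 to 0.15. Without the filter 11 were higher and 13 lower. The replicate number as a block gave 14 higher and 16 lower, keeping all 28 calls and adding Fbln2 and Cspg4. Over all tested genes, tumors with equal numbers did not deviate together (correlations -0.059 to 0.057). These few correlations do not show whether equal numbers stand for a shared day or batch. The depth limits Acan, Fmod and Comp, which were not tested, and Ogn and Has2, which rest on low counts.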
